A study of Saccharomyces cerevisiae with 27 samples.

Results

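The autophagy-related (ATG) genes of Saccharomyces cerevisiae were described here across RNA-seq and DRIP-seq libraries of strains that lack the histone deacetylases Hst3 and Hst4, the nuclear RNA exosome subunit Rrp6, or all of these. Members were all genes whose standard symbol is ATG followed by a number. Systematic identifiers were paired with symbols through the RefSeq gene table, which matched 5286 of 5298 gene intervals. This gave 37 ATG genes, and all 37 had values in the RNA table of 5297 genes and in the DRIP table of 5298 genes. SNX4 and VPS30, which carry ATG numbers only as synonyms, were kept with the other genes of the pathway.

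Autophagy encloses cytoplasm in a double membrane, the autophagosome, and delivers it to the vacuole for breakdown. The Atg1 kinase complex starts the process when the TORC1 kinase is off, Atg9 vesicles and lipid transfer build the membrane, and a pair of ubiquitin-like systems attach Atg8 to it. Receptor proteins link particular cargo to Atg8 in selective autophagy. Rapamycin, which inhibits TORC1, is a standard inducer of autophagy, and the anchor-away strains used here were all treated with it.

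Cells were in log phase at 30 °C in rich medium and received rapamycin 3 h before harvest in every group. In anchor-away strains rapamycin draws a protein fused to the FRB domain out of the nucleus, so the treatment itself was shared by controls and mutants. The groups were WT (WT anchor away), hst34 (hst4-delta HST3-FRB), rrp6 (RRP6-FRB) and hst34rrp6 (hst4-delta HST3-FRB RRP6-FRB). RNA-seq of total RNA with a Schizosaccharomyces pombe spike-in covered all 4 groups, and DRIP-seq, which captures RNA-DNA hybrids with the S9.6 antibody, covered WT and hst34, untreated or digested with RNase H, each with 2 libraries per group. The sources used here do not say whether the strains resist rapamycin. Nor do they say whether libraries of a group came from separate cultures, so the spread behind each p-value may be technical.

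Each RNA library held between 5487526 and 10183415 reads in genes. The number ran from 935412 to 2951246 in 7 DRIP libraries and reached 83303106 in the DRIP library WT 2. HST4 RNA, the check of the deletion, was 92.5 and 93.3 per kb in WT, 91.5 and 100.3 in rrp6, 9.69 and 0.726 in hst34, and 3.34 and 0 in hst34rrp6. FRB fusions leave the HST3 and RRP6 genes in place, so their RNA checks nothing. The RNA library hst34 1 was above hst34 2 at 95.2% of all genes and at all 37 ATG genes.

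The deposited gene intervals of the ATG genes ran from 384 to 4928 bp with a median of 1552 bp, against 1512 bp over all intervals, and lay on 13 of the 16 chromosomes. An opposite-strand interval overlapped 15 of the 37 (40.5%), against 35.3% of all intervals. Since no source used here states whether counting used strand, reads of these pairs cannot be told apart. The longest overlap was at ATG29 (YPL166W, sacCer3 chromosome XVI, 237313 to 239153), where the SET6 interval covered 1121 bp, or 60.9%. The ATG16 interval (YMR159C, chromosome XIII, 573357 to 574909) was 1552 bp long against an open reading frame of 453 bp, so most of its signal can come from outside the frame.

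ATG transcripts were low. RNA signal is given throughout as spike-in-scaled reads per kb of interval. The median ATG gene sat between the 12.9th and 18.8th percentile of all genes in the 8 libraries, and the ATG median differed from the median of all genes by −1.33 to −0.94 log2 units. In WT the highest were ATG42, with 850.9 and 871.8, and ATG27, with 712.3 and 964.3, whose ranges overlap. ATG42 encodes a vacuolar serine carboxypeptidase and ATG27 a membrane protein of Atg9 traffic. ATG41, another gene of Atg9 traffic, was less even, with 442.3 and 788.9. The lowest in WT were ATG39, with 16.2 and 22.2, ATG14, with 22.7 and 35.4, and ATG10, with 32.3 and 35.4; ATG14 and ATG10 overlap in range and ATG39 lies below both. These low values rest on 23 and 18 reads for ATG39 and 24 and 15 reads for ATG10. Summed over the 37 genes, ATG signal made up 0.0881% and 0.0908% of all gene signal in WT, with hst34 at 0.101% and 0.0954%, rrp6 at 0.0975% and 0.101%, and hst34rrp6 at 0.115% and 0.124%. Both hst34rrp6 libraries were the highest in this share.

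**Figure D1:**
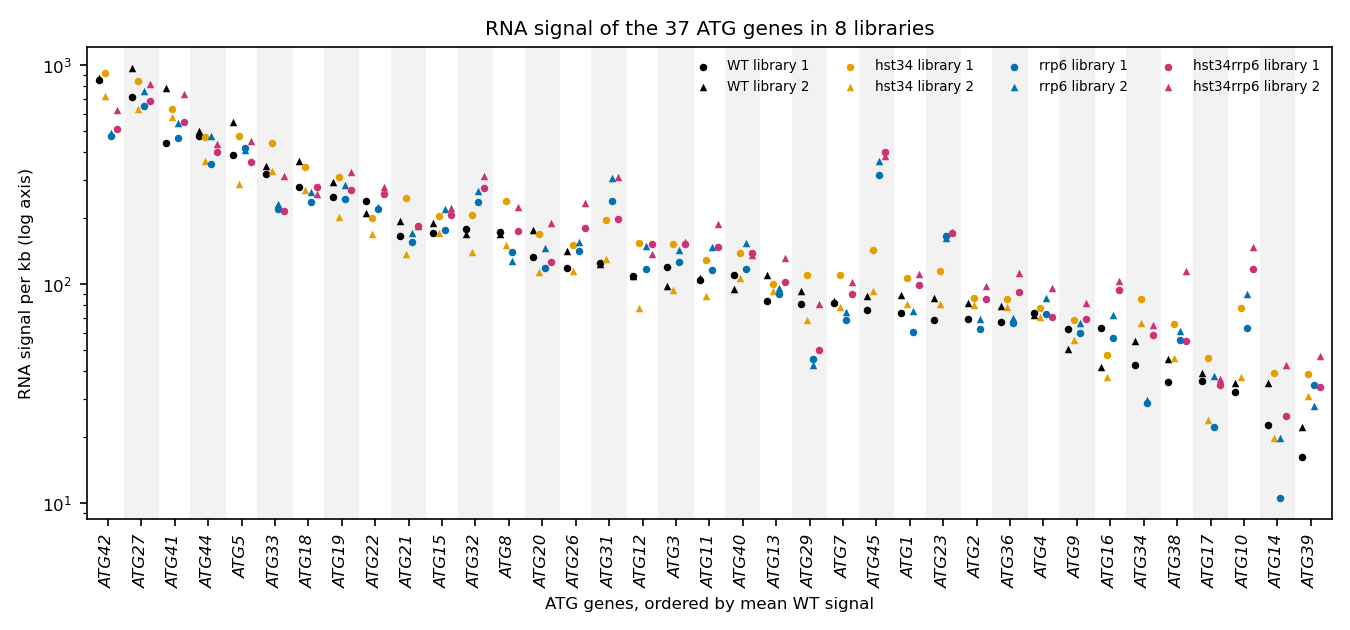
RNA signal per kb (log axis) of the 37 ATG genes in each of the 8 libraries, ordered by mean WT signal; circles are library 1 and triangles library 2 of each strain. ATG42 was highest in WT at 850.9 and 871.8, and the rrp6 and hst34rrp6 points of ATG45 stand at 316.1 to 402.9 above WT points of 76.4 and 87.9.

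A few ATG genes rose when Rrp6 was depleted, led by ATG45, while ATG1, ATG8, ATG9 and ATG13, at the core of autophagosome formation, did not pass the test in limma in any comparison. In rrp6 against WT, 4 ATG genes rose (ATG45, ATG31, ATG23 and ATG10) and 2 fell (ATG42 and ATG29), 6 of 37 called in a comparison where 11.2% of all genes tested were called (4.53% higher and 6.63% lower). In hst34rrp6 against WT, 8 rose (the same 4 with ATG16, ATG32, ATG38 and ATG39) and none fell, where 15.9% of all genes were called and 10.2% were higher. In hst34rrp6 against hst34, 5 rose (ATG45, ATG10, ATG16, ATG32 and ATG23) and none fell, where 16.9% of all genes were called and 13.5% were higher. Those comparisons share libraries with each other and are not independent. In bulk libraries a change in some cells and a change in all cells cannot be told apart. Each call is an adjusted p under 0.05 in limma, over all 5294 genes tested, on the log2(signal + 58.8) scale, on which changes of low genes such as these appear smaller than they are.

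With each library centred on its own median the split of calls moved. It became 5 higher and 4 lower in rrp6 against WT, 8 higher and 6 lower in hst34rrp6 against WT, and 5 higher and 5 lower in hst34rrp6 against hst34. Centring called 1762, 2051 and 2066 of all 5294 genes tested in these comparisons. edgeR on the recovered reads gave 6 and 5, 10 and 4, and 7 and 4 in the same order, where it called 1909, 2229 and 2292 of all genes. In rrp6 against WT, centring hardly moved the fold changes themselves, with ATG33 at −0.46 before and −0.48 after. The median residual SD over all genes went from 0.182 to 0.097, so more genes passed at like fold changes. In hst34rrp6 against WT the values moved more, with ATG33 at −0.30 before and −0.42 after. Falls are reported on the deposited spike-in scale.

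The Atg1 kinase complex and its scaffolds gave 1 gene that rose and 1 that fell. ATG31 (YDR022C, chromosome IV, 488046 to 488758), a subunit of the Atg17 scaffold, had an RNA signal of 125.0 and 123.5 in the WT libraries, 196.8 and 131.0 in the hst34 libraries, 240.6 and 305.1 in the rrp6 libraries and 199.1 and 307.8 in the hst34rrp6 libraries. Both rrp6 libraries and both hst34rrp6 libraries lay above every WT library. The log2 fold change was 0.85 ± 0.20 in rrp6 against WT (SE, n = 2 per group, adjusted p = 0.00043) and 0.75 ± 0.20 in hst34rrp6 against WT (adjusted p = 0.00244), and 0.48 ± 0.20 in hst34rrp6 against hst34 did not pass (adjusted p = 0.0781). Without the library rrp6 2 the first call was lost, and without WT 2 or hst34rrp6 2 the second was lost.

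ATG29, which encodes a partner of Atg31 in the same scaffold, moved the other way. Its RNA signal was 81.0 and 93.6 in WT, with hst34 at 110.0 and 68.7, rrp6 at 45.6 and 42.9 and hst34rrp6 at 50.2 and 81.0. The rrp6 libraries were below all others, and the hst34rrp6 libraries reached the lower WT value. It fell by 0.50 on the log2 scale in rrp6 against WT (SE 0.15, adjusted p = 0.00905), a call that was lost without WT 2 and without either rrp6 library. The overlapping SET6 interval had a log2 fold change of 0.01 ± 0.19 in the same comparison (adjusted p = 0.994), and how far its reads enter the ATG29 value was not tested.

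ATG1, the kinase gene itself, had an RNA signal of 73.7 and 89.2 in the WT libraries, 107.1 and 81.2 in the hst34 libraries, 60.6 and 75.1 in the rrp6 libraries and 99.2 and 111.6 in the hst34rrp6 libraries. ATG13, whose product is the TORC1-controlled activator of Atg1, had 83.9 and 109.9 in WT, with hst34 at 100.1 and 93.0, rrp6 at 90.3 and 96.4 and hst34rrp6 at 102.7 and 132.1. For ATG1 only the hst34rrp6 libraries lay clear of WT, and for ATG13 every group overlapped WT. In hst34rrp6 against WT the log2 fold changes were 0.23 and 0.18, and neither passed. ATG11, the scaffold of selective autophagy, and ATG17, that of bulk autophagy, were not called either, and the 6 genes of this role had a median of 0.20 in hst34rrp6 against WT, beside 0.11 over all genes tested.

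The Vps34 lipid kinase complex makes the phosphoinositide that marks the forming membrane, and its ATG subunits are Atg14 and Atg38. ATG38 (YLR211C, chromosome XII, 563389 to 564589) had an RNA signal of 35.8 and 45.4 in the WT libraries, 66.0 and 45.9 in the hst34 libraries, 55.6 and 61.4 in the rrp6 libraries and 55.3 and 115.4 in the hst34rrp6 libraries. All 6 mutant libraries were above both WT libraries, with hst34 2 only just so. It rose in hst34rrp6 against WT by 0.51 ± 0.14 on the log2 scale (adjusted p = 0.00376), a call lost without WT 1 and without hst34rrp6 2, the library at 115.4. ATG14 was not called, with log2 fold changes of −0.25 in rrp6 and 0.07 in hst34rrp6 against WT.

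Among the 6 genes of Atg9 traffic and lipid transfer, only ATG23 was called. ATG23 (YLR431C, chromosome XII, 1000148 to 1002092), whose product acts with Atg27 in forming Atg9 vesicles, had an RNA signal of 68.9 and 86.8 in WT, with hst34 at 114.3 and 81.1, rrp6 at 166.2 and 161.9 and hst34rrp6 at 170.6 and 172.3. The 4 libraries without nuclear Rrp6 lay within 161.9 to 172.3 and above the other 4. Log2 fold changes were 0.71 ± 0.18 in rrp6 against WT (adjusted p = 0.00109), 0.76 ± 0.18 in hst34rrp6 against WT (adjusted p = 0.000357) and 0.56 ± 0.18 in hst34rrp6 against hst34 (adjusted p = 0.0131). The first was lost without WT 1 or rrp6 1, and the third with only the groups compared and without hst34 2 or either hst34rrp6 library.

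ATG9, the gene of the membrane protein that seeds autophagosomes, had an RNA signal of 62.3 and 50.8 in the WT libraries, 68.9 and 55.9 in the hst34 libraries, 60.1 and 66.3 in the rrp6 libraries and 69.3 and 82.0 in the hst34rrp6 libraries. Only the hst34rrp6 libraries lay clear of WT, by less than the test needs (log2 fold change 0.22). ATG27 and ATG41, which also serve Atg9 traffic, were not called, nor were ATG2, the lipid transfer gene, and ATG18, whose product binds the phosphoinositide mark. The role's range in rrp6 against WT ran from −0.29 to 0.71.

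The 8 genes of the ubiquitin-like systems include ATG7 (the activating enzyme), ATG3 and ATG10 (the conjugating enzymes of Atg8 and Atg12), ATG4 (the Atg8 protease) and ATG5, ATG12 and ATG16 (the complex that helps place Atg8 on the membrane). ATG10 (YLL042C, chromosome XII, 51917 to 52661) had an RNA signal of 32.3 and 35.4 in WT, with hst34 at 78.0 and 37.6, rrp6 at 63.3 and 90.3 and hst34rrp6 at 117.1 and 148.5. Both hst34rrp6 libraries were above all others, and both hst34 libraries were above WT although hst34 2 was close to it. Log2 fold changes were 0.54 ± 0.15 in rrp6 against WT (adjusted p = 0.00378), 1.04 ± 0.15 in hst34rrp6 against WT (adjusted p = 1.56e-10) and 0.73 ± 0.15 in hst34rrp6 against hst34 (adjusted p = 2.28e-05). The last 2 held under all 16 alternatives run for them, and the first was lost without either WT library and without rrp6 2.

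In hst34rrp6 against rrp6, ATG10 differed by 0.50 ± 0.15 with an adjusted p of 0.0573, the smallest of any ATG gene in that comparison. The opposite-strand FPS1 interval covers 19.9% of ATG10, at a signal of 302.9 to 329.5 in WT, and had log2 fold changes of 0.34 and 0.38 in rrp6 and hst34rrp6 against WT, neither of them called. How much of the ATG10 value comes from FPS1 reads was not tested.

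ATG16 was 63.1 and 41.9 in the WT libraries, 47.4 and 37.7 in the hst34 libraries, 57.0 and 72.1 in the rrp6 libraries and 93.9 and 103.9 in the hst34rrp6 libraries. Only hst34rrp6 lay clear of WT. It rose by 0.51 ± 0.14 on the log2 scale against WT (adjusted p = 0.00456) and by 0.64 ± 0.14 against hst34 (adjusted p = 0.000209); the first was lost with centred libraries, without WT 2 and without hst34rrp6 2, and the second held under all 16 alternatives. The interaction of both losses was 0.49 ± 0.20, with an adjusted p of 0.5.

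ATG8, the gene of the ubiquitin-like protein on the membrane, is the usual transcriptional marker of autophagy induction. Its RNA signal was 173.6 and 168.9 in WT, with hst34 at 240.8 and 151.1, rrp6 at 139.7 and 128.0 and hst34rrp6 at 174.6 and 225.3. The rrp6 libraries were the lowest, hst34 straddled WT, and hst34rrp6 reached from just above WT upward. No ATG8 difference passed, with log2 fold changes of 0.12, −0.26 and 0.16 in hst34, rrp6 and hst34rrp6 against WT. Its interval of 864 bp holds an open reading frame of 354 bp. The other genes of these systems were not called, and their role's median in hst34rrp6 against WT was 0.22.

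The 6 receptor genes are ATG19 (the Cvt pathway, which carries hydrolases to the vacuole), ATG34 (its homologue for the mannosidase Ams1), ATG32 (mitochondria), ATG36 (peroxisomes), ATG39 (nucleus) and ATG40 (endoplasmic reticulum). ATG32 (YIL146C, chromosome IX, 73973 to 76037) was 178.8 and 169.5 in the WT libraries, 207.8 and 140.1 in the hst34 libraries, 236.7 and 267.3 in the rrp6 libraries and 274.8 and 310.9 in the hst34rrp6 libraries. The rrp6 and hst34rrp6 libraries lay above the other 4, in that order. It rose by 0.59 ± 0.20 on the log2 scale in hst34rrp6 against WT (adjusted p = 0.0284) and by 0.61 ± 0.20 against hst34 (adjusted p = 0.0236), while 0.41 ± 0.20 in rrp6 against WT did not pass (adjusted p = 0.211). Each of these calls held in 10 of 17 alternatives. Both were lost without either rrp6 library, without either hst34rrp6 library and with the replicate number as a block. The first was also lost without either WT library, and the second without hst34 2 and with only the groups compared.

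ATG39 (YLR312C, chromosome XII, 757621 to 759045), the lowest ATG gene in WT at 16.2 and 22.2, was 38.8 and 31.0 in the hst34 libraries, 34.7 and 27.7 in the rrp6 libraries, and 33.8 and 46.8 in the hst34rrp6 libraries. Every mutant library was above both WT libraries. Only hst34rrp6 against WT passed, at 0.34 ± 0.12 (adjusted p = 0.0284), and it held in 7 of 16 alternatives. The call was lost with centred libraries, by DESeq2, with the 25th percentile as pseudocount and with the replicate number as a block. It was also lost without either WT library, either rrp6 library or hst34rrp6 2. The 8 libraries held 18 to 52 reads each for this gene.

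ATG34 showed a spread of levels without a call. It was 42.7 and 55.3 in WT, with hst34 at 85.6 and 66.3, rrp6 at 28.7 and 29.7 and hst34rrp6 at 58.7 and 65.0. All hst34 and hst34rrp6 libraries were above WT and both rrp6 libraries were below it. edgeR on the recovered reads called it higher in hst34 against WT and in hst34rrp6 against rrp6, and lower in rrp6 against WT. With only the groups compared it was likewise called lower in rrp6 against WT and higher in hst34rrp6 against rrp6, and with centred libraries it was called lower in hst34rrp6 against hst34. ATG19, ATG36 and ATG40 were not called, and all 6 receptor genes had a log2 fold change above 0 in hst34rrp6 against WT, between 0.10 and 0.59, a range that includes the median of 0.11 over all genes.

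ATG45 (YIL024C, chromosome IX, 308485 to 309205), described as a receptor that brings glycogen to the autophagosome, changed most of the 37. It was 76.4 and 87.9 in the WT libraries, 143.5 and 93.0 in the hst34 libraries, 316.1 and 365.8 in the rrp6 libraries and 402.9 and 384.8 in the hst34rrp6 libraries, from 36 to 223 reads per library. The 4 libraries without nuclear Rrp6 lay far above the rest, and both hst34 libraries were above WT. Log2 fold changes were 1.50 ± 0.20 in rrp6 against WT (adjusted p = 9.64e-12), 1.68 ± 0.20 in hst34rrp6 against WT (adjusted p = 9.64e-15) and 1.37 ± 0.20 in hst34rrp6 against hst34 (adjusted p = 1.07e-09). All 3 held in 17 of 17 alternatives. No interval overlaps ATG45. The interval next upstream, YKE4 on the same strand, abuts it and differed by −0.27 ± 0.22 in rrp6 against WT (adjusted p = 0.548).

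The remaining 8 genes act in the Cvt pathway, in lipids or in the vacuole. ATG42 (YBR139W, chromosome II, 515648 to 517352) was 850.9 and 871.8 in WT, with hst34 at 921.9 and 724.1, rrp6 at 475.6 and 489.1 and hst34rrp6 at 512.2 and 623.5. Both rrp6 libraries were below all others, and hst34rrp6 lay between rrp6 and WT. It fell by 0.77 on the log2 scale in rrp6 against WT (SE 0.22, adjusted p = 0.00751), and the −0.56 ± 0.22 of hst34rrp6 against WT did not pass (adjusted p = 0.0647). Leaving out any of the 4 WT and rrp6 libraries ended the call, while the log2 fold change stayed between −0.84 and −0.66 over all 17 alternatives. The other 7, ATG15 (the vacuolar lipase), ATG20 (a sorting nexin), ATG21 (a phosphoinositide binder), ATG22 (vacuolar amino acid efflux), ATG26 (a sterol glucosyltransferase), ATG33 (mitophagy) and ATG44 (mitochondrial fission), were not called.

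**Figure D2:**
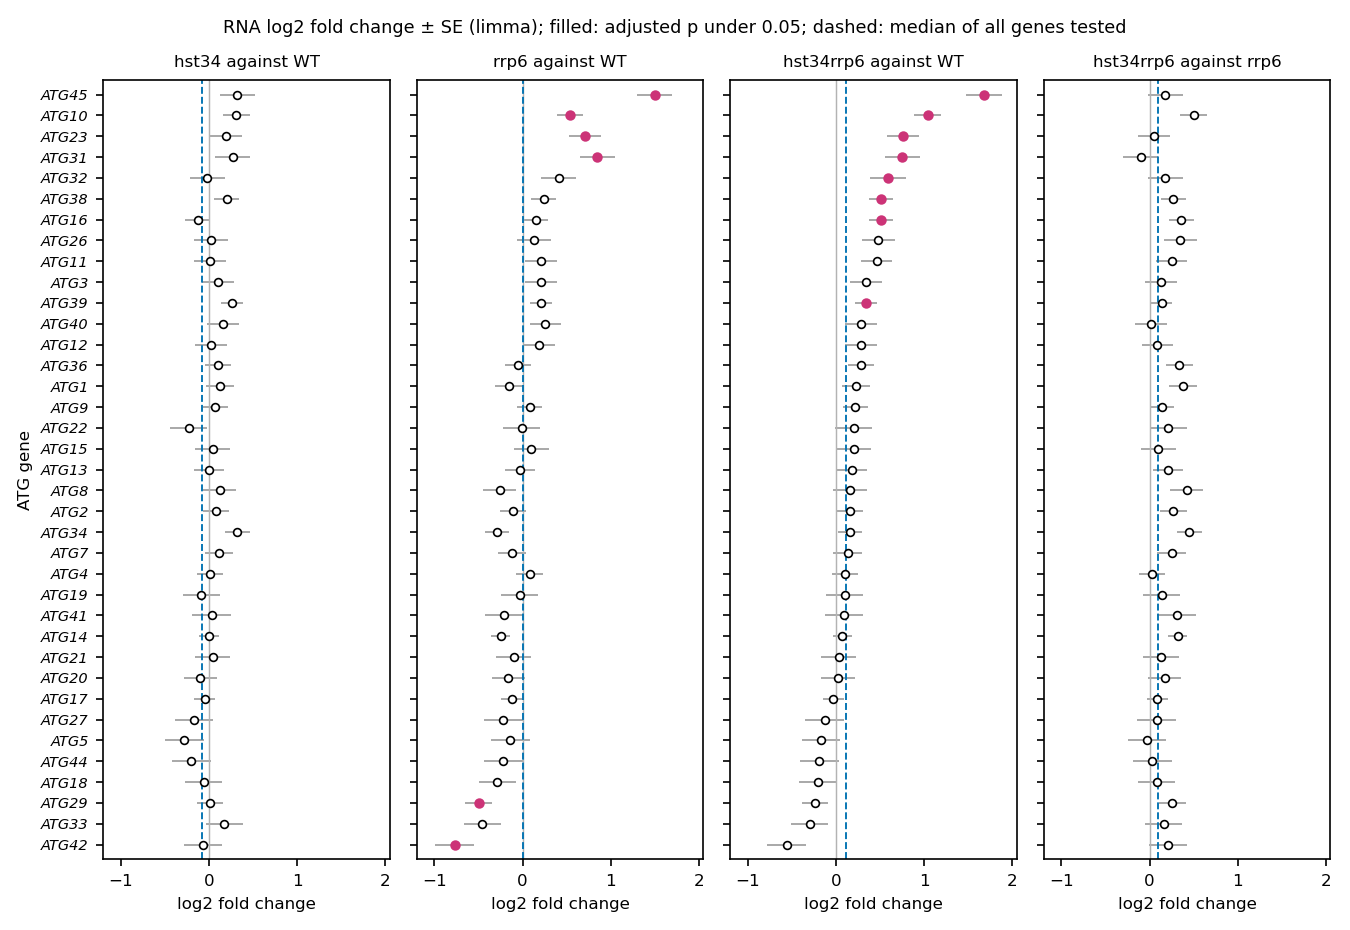
Log2 fold change of RNA signal ± SE (limma, n = 2 per group) for the 37 ATG genes in 4 comparisons; filled points have an adjusted p under 0.05, and the dashed line is the median of all genes tested. ATG45 lies at 1.50 in rrp6 and 1.68 in hst34rrp6 against WT, ATG42 at −0.77 in rrp6, and no point is filled in hst34 against WT or hst34rrp6 against rrp6.

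Loss of Hst3 and Hst4 alone gave no ATG call. In hst34 against WT, 0 of 37 passed in limma against 2.0% of all genes, and the smallest adjusted p was 0.376. An unadjusted p under 0.05 was reached by 3 (8.33% of all genes). DESeq2 called 0 (440 of all genes), and edgeR called ATG34 and ATG39 higher (570 of all genes called). With centred libraries ATG10 and ATG45 were called higher, in a fit that called 398 of all genes. Log2 fold changes ran from −0.28 to 0.32 with a median of 0.03, against −0.08 over all genes, and 26 of 37 (70.3%) were above 0 against 33.9% of all genes. With centred libraries 32 were above 0, with a median of 0.13 against 0.02 over all genes. By edgeR and by DESeq2 29 were above 0, with medians of 0.13 and 0.12, each against −0.01 over all genes. The share of all genes above 0 was not counted at those scalings.

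Adding the loss of Hst3 and Hst4 to Rrp6 depletion gave no ATG call either. In hst34rrp6 against rrp6, 0 of 37 passed in limma against 1.04% of all genes. An unadjusted p under 0.05 was reached by 7 (7.46% of all genes). DESeq2 called 0 (227 of all genes), and edgeR called ATG1 and ATG34 higher (180 of all genes called). The log2 fold change was above 0 in 35 of 37 (94.6%) against 73.6% of all genes, with a median of 0.18 against 0.10. This tally moved with the scaling, to 26 of 37 with centred libraries (median 0.07, against −0.01 over all genes). It was 29 by edgeR (median 0.14 against 0.0) and 28 by DESeq2 (0.13 against −0.01). In the interaction, which asks whether the 2 losses together differ from their sum, 0 of 37 passed in limma against 1.19% of all genes. There 1 had an unadjusted p under 0.05 (5.74% of all genes), and edgeR and DESeq2 called 0 (164 and 168 of all genes).

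Library ranges that do not overlap between groups were also counted. In hst34 against WT 6 ATG genes lay wholly higher and 2 wholly lower, against 7.05% and 18.2% of all genes. In rrp6 against WT 11 were higher and 9 lower, against 28.5% and 28.4%. In hst34rrp6 against WT 22 were higher and 3 lower, against 39.3% and 19.9%. In hst34rrp6 against rrp6 22 were higher and 0 lower, against 31.8% and 7.23%. The 22 of 37 make 59.5% in each of the last 2 comparisons. These counts use the deposited scale, on which the median log2 fold change of all genes was 0.11 and 0.10 there. With centred libraries, ATG genes with a log2 fold change above 0 went from 29 to 23 and from 35 to 26.

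Beyond the ATG genes, 67 other genes of the pathway were listed and measured. In rrp6 against WT, 1 rose and 7 fell, 8 of 67 where 11.2% of all genes were called, so the share called was near that of all genes. LST8, a TORC1 subunit, rose by 0.95 ± 0.22 on the log2 scale (adjusted p = 0.000356), from 348.3 and 426.1 in WT to 735.1 and 873.1 in rrp6. Of 9 genes for vacuolar hydrolases, the kind of enzyme ATG42 encodes, or for efflux from the vacuole, 5 fell and none rose, with a median of −0.66.

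APE1, the aminopeptidase that the Cvt pathway carries, was 493.7 and 676.3 in the WT libraries, 707.6 and 501.4 in the hst34 libraries, 133.1 and 137.9 in the rrp6 libraries and 195.2 and 243.7 in the hst34rrp6 libraries. The 4 libraries without nuclear Rrp6 lay below the other 4. It fell by 1.71 in rrp6 against WT (SE 0.22, adjusted p = 3.59e-13) and by 1.20 in hst34rrp6 against WT (adjusted p = 1.09e-06). PHO8 (vacuolar alkaline phosphatase) fell by 1.08 in rrp6 and by 1.01 in hst34rrp6 against WT, and PRC1 (carboxypeptidase Y) fell by 0.75 and 0.72, with adjusted p of 0.00866 at most. PEP4 and PRB1, the main vacuolar proteases, fell by 0.66 and 0.70 in rrp6 (adjusted p = 0.0237 and 0.0199) and were not called in hst34rrp6, at −0.33 and −0.11.

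CUE5, a receptor for ubiquitinated aggregates, was 389.9 and 516.9 in WT and 117.6 and 144.0 in rrp6, and fell by 1.43 (SE 0.21, adjusted p = 8.52e-10). PEX14, a peroxisomal import gene, fell by 0.82 in rrp6. In hst34rrp6 against WT, CUE5 fell by 1.35 and PEX14 fell by 0.72. None of the 67 was called in hst34 against WT, in hst34rrp6 against rrp6 or in the interaction. None of the 11 listed regulators of ATG transcription and none of the 3 ATG mRNA decay factors was called in any RNA comparison. The share of all genes called was at most 16.9%, and lists this short can hold no call at such shares. Against hst34, hst34rrp6 had LST8 and TRS85 (a vesicle tethering subunit) higher, and PRC1, APE1, CUE5 and PEX14 lower. These were 2 higher and 4 lower of 67, where 16.9% of all genes were called.

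**Figure D3:**
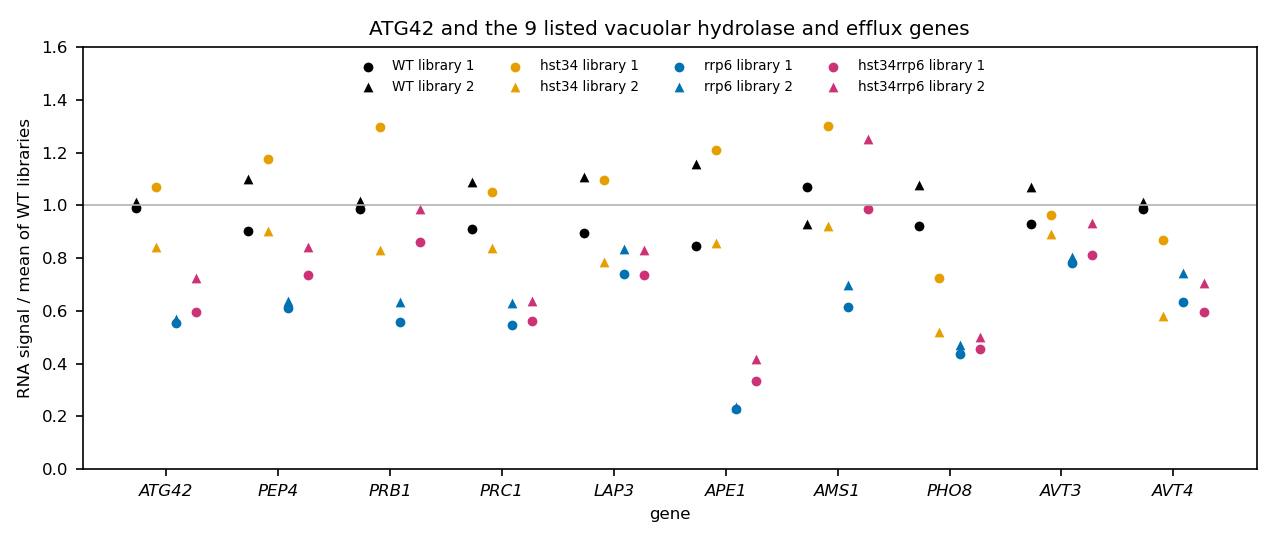
RNA signal of ATG42 and the 9 listed vacuolar hydrolase and efflux genes, each divided by the mean of its WT libraries; circles are library 1 and triangles library 2 of each strain. Both rrp6 points of every gene lie under both WT points, as at 28.4% of all genes tested. In rrp6 against WT, 5 of the 9 and ATG42 were called. APE1 falls furthest, with 133.1 and 137.9 per kb in rrp6 against 493.7 and 676.3 in WT.

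DRIP signal, given here as scaled reads per interval and not per length, followed interval size among the ATG genes. Spearman's rho between interval length and WT DRIP signal was 0.66 over the 37 genes, which share libraries and depth. Per kb, the ATG median lay between 84.8 and 114.1 in the 8 libraries, and ATG45 was the highest ATG gene in 6 of them. Across the 37 genes rho was 0.01 between WT RNA per kb and WT DRIP per kb.

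No ATG interval was called in any of the 5 DRIP comparisons, in which limma called 0% of all genes. Those were hst34 against WT, RNase H against none in WT and in hst34, hst34 against WT after RNase H, and the interaction. In that order 3, 0, 2, 0 and 0 ATG genes had an unadjusted p under 0.05. The shares of all genes were 2.62%, 0%, 10.2%, 4.0% and 1.74%. The fit did not pair libraries by number, while deviations of same-numbered WT and WT RNase H libraries correlated at 0.94. The split between the WT libraries therefore counted as error. With 0% of all genes under 0.05 in RNase H against none in WT, the lack of calls there decides nothing. edgeR and DESeq2 called 0 ATG genes in all 5. Over all genes DESeq2 called 49 in RNase H against none in hst34 and 21 in hst34 against WT after RNase H. The SE had a median of 0.44 log2 units and ran up to 1.08 in the comparisons of groups, and had a median of 0.62 and ran up to 1.52 in the interaction, so differences of the size seen in RNA were not detectable for most members. Fitted on the hst34 groups alone, 6 ATG genes passed as higher with RNase H, in a fit that called 1060 of all genes.

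RNase H, which digests the RNA of a hybrid, serves as the control of the assay. In hst34 most ATG intervals had more signal with it than without, and in WT the library pairs differed. The hst34 libraries also summed higher over all genes with RNase H, at 1131848.5 and 1113539.2 against 924001.2 and 902159.0. The ATG median log2 fold change with RNase H in hst34 was 0.44, against 0.34 over all genes. It was 0.21 against 0.12 with centred libraries, and 0.13 against 0.04 by edgeR. ATG genes above 0 numbered 30, 26 and 23 in turn. ATG2, the longest interval, was 481.1 and 818.6 in WT and 513.9 and 761.0 with RNase H. In hst34 it was 429.2 and 418.1, and with RNase H 723.6 and 821.2. In WT the ranges overlapped, and in hst34 both RNase H libraries were higher. ATG45 was 164.9 and 318.9 in WT, 156.0 and 383.6 with RNase H, 134.3 and 232.5 in hst34, and 418.7 and 364.6 in hst34 with RNase H, with the same pattern.

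Over the 37 genes, the RNase H library exceeded its same-numbered partner at 26 in WT 1, 14 in WT 2, 26 in hst34 1 and 30 in hst34 2, beside 69.7%, 49.3%, 70.5% and 68.8% of all genes. Both RNase H libraries were above both untreated ones at 3 ATG genes in WT (5.32% of all genes) and at 19 in hst34 (49.5%). They were below both at 2 in WT, ATG26 and ATG33 (2.23%), and at 3 in hst34, ATG33, ATG21 and ATG13 (13.3%). ATG33 was thus lower with RNase H in both strains, at 92.5 and 90.9 in WT against 73.1 and 87.8, and at 113.2 and 82.4 in hst34 against 54.5 and 39.1. It was chosen after its values were seen, and its difference was not called in either strain.

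The libraries WT 2 and WT RNase H 2 stood apart. WT 1 was over double WT 2 at 11 of 37 ATG genes (35.9% of all genes). Their lengths had a median of 1200 bp (624 to 1944 bp), while the other 26 had 1648 bp (384 to 4928 bp), so the ranges overlap. ATG31 was 23.1 in WT 1 and 0.768 in WT 2, 58.6 and 2.28 with RNase H, 14.6 and 30.8 in hst34, and 83.5 and 53.0 in hst34 with RNase H. ATG41 was 25.8 and 0.852 in WT, 34.8 and 1.71 with RNase H, 24.1 and 30.8 in hst34, and 76.2 and 65.1 in hst34 with RNase H. At ATG31 and ATG41 the pair of WT libraries numbered 2 were the lowest of the 8. Other short intervals differed from this. ATG44, the shortest at 384 bp, was 46.2 in WT 1 and 39.2 in WT 2, and ATG45, of 720 bp, was 164.9 and 318.9. Over the 37 genes rho was 0.99 between WT 2 and WT RNase H 2, 0.96 between WT 1 and WT RNase H 1 and 0.84 between WT 1 and WT 2. With WT 2 or WT RNase H 2 left out in turn, 0 ATG genes were called in every DRIP comparison.

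**Figure D4:**
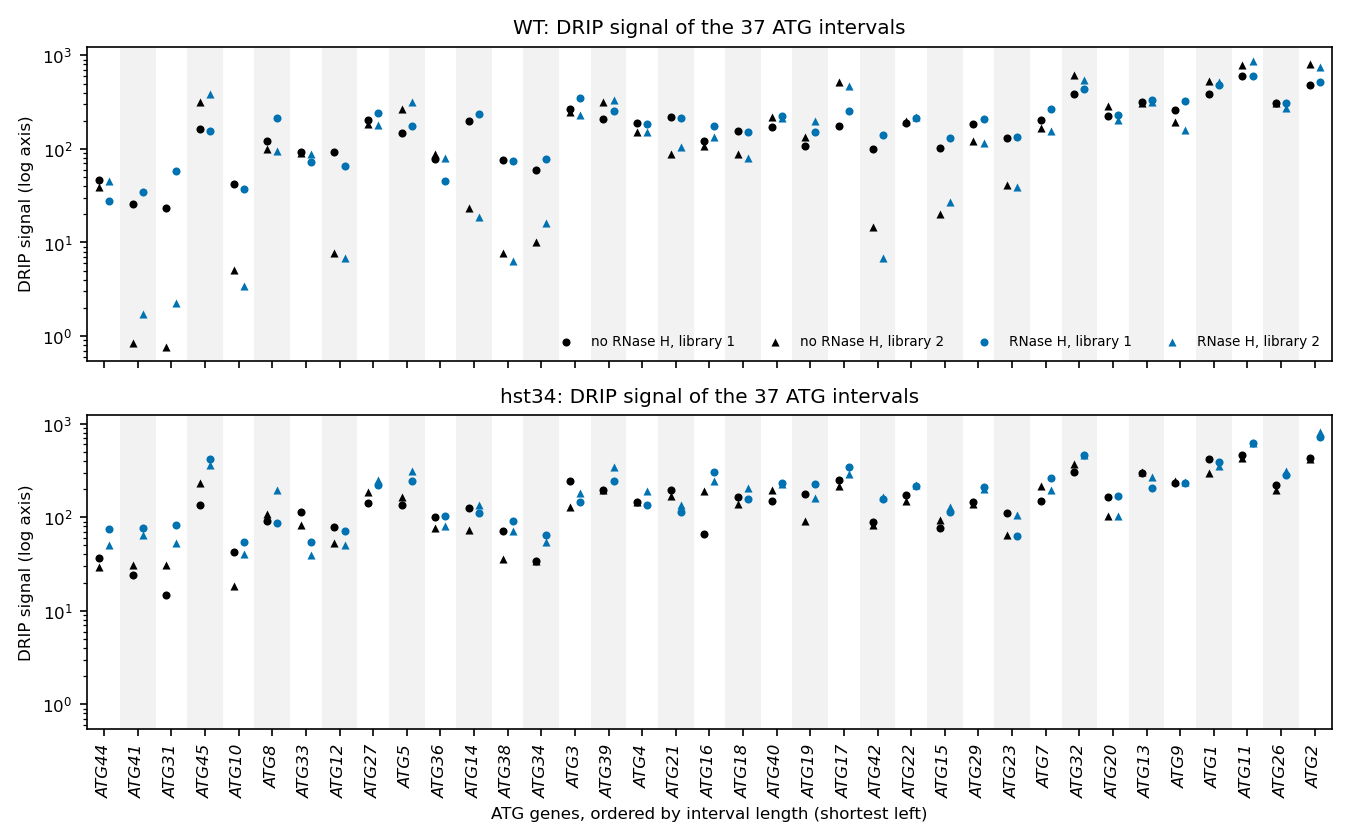
DRIP signal (log axis) of the 37 ATG intervals, ordered by length, in WT (top) and hst34 (bottom); black is without and blue with RNase H, circles are library 1 and triangles library 2. ATG31 and ATG41 drop to 0.768 and 0.852 in WT library 2, while in hst34 the blue points of both genes lie above the black ones.

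Break-seq, which captures DNA ends, was deposited as 1 list of 239 peaks for hst34 against WT. Peaks overlapped 4 of the 37 ATG intervals (10.8%), ATG9, ATG13, ATG26 and ATG38, against 542 of 5298 intervals (10.2%). The 2 peaks at ATG26 (chromosome XII, 530001 to 533000 and 533251 to 535500) had a deposited signal of 460.7 and 486.4 in hst34 against 265.2 and 258.6 in WT, and of 316.5 and 361.4 against 193.9 and 221.3. The hst34 libraries were higher at both, as the list was made to hold. The peak at ATG38 spans 561501 to 567000 on chromosome XII and covers neighbouring genes as well. With at least 50% of a peak inside the interval, only ATG26 remained (2.7%), beside 2.3% of all intervals.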

How the data were processed

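Values are deposited signal, not counts. The table's title gives the deposited RNA signal as scaled by S. pombe spike-in and length; it equals reads times 1 constant per library per kb of interval. The deposited DRIP signal is reads per interval times 1 constant per library, and the deposited Break-seq signal reads per peak likewise, and no source used here states what those constants rest on. The submitters' processing notes name TopHat2, Bowtie2, SAMtools, bedtools, HTSeq 0.9.1 and the build sacCer3. Dividing by the value of 1 read gave whole reads, within 0.01, for 100% of values, and the counts so recovered were used only in edgeR 4.0.16 and DESeq2 1.42.0 as alternatives.

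Tests used genes with signal above 0 in 2 or more libraries and limma 3.58.1 (R 4.3.3, trend, all 8 libraries of a table) on log2(signal + pseudocount), where the pseudocount was the table's 5th percentile of values above 0 (RNA 58.8, DRIP 12.5), with Benjamini-Hochberg adjustment over 5294 and 5298 genes at 0.05. The prior df was infinite in RNA, so genes of like level carry like errors, which partly reflect an offset shared by a library's genes; a p-value does not measure a gene's own scatter. PCR copies were not marked. The method was tested on simulated counts with the same spread for all genes, no offset between libraries, and changes only in genes above a minimum count. That run did not measure error rates under the spread of these data.

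Library values are given in full for members called in any comparison and for ATG1, ATG8, ATG9 and ATG13, others by role; ATG34, members in the DRIP account and others shown as examples were chosen after their values were seen. The members and lists were chosen with earlier results of these data known. The 7 NET-seq samples were not analysed here. No genome was used, so no sequence is printed and the planned search for promoter motifs was not run.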

Additional observations from a re-analysis of the deposited data

How the results depend on the processing

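Single-gene values under alternatives were tallied only for the calls above and for ATG1, ATG8, ATG9 and ATG13, which had no call to lose. Of these values, 454 kept their direction and side of the threshold, 47 lost the call and 3 changed sign, none of them called. All 47 losses fell among the calls, and calls gained by other ATG genes are outside this tally. Leaving out 1 library, ATG8 ran from −0.13 to 0.38 and ATG9 from −0.01 to 0.15 in hst34 against WT. Likewise ATG13 ran from −0.15 to 0.09 in rrp6 against WT. Called ATG genes were, in hst34 against WT (0), 2 with centred libraries, 2 by edgeR and 0 to 1 leaving out 1 library; in rrp6 against WT (6), 3 with the lowest 25% of genes dropped, which left 14 members, 11 by edgeR and 2 to 7 leaving out 1; in hst34rrp6 against WT (8), 3, 14 centred, 14 by edgeR and 3 to 11. In hst34rrp6 against rrp6 (0) they were 1 with the 25th percentile as pseudocount, 2 with no filter, 2 with only the groups compared, 2 by edgeR and 0 to 2 leaving out 1. In hst34rrp6 against hst34 (5) they were 2 with genes dropped, 10 centred, 3 with only the groups compared, 11 by edgeR, 11 by DESeq2 and 3 to 12, the 12 without hst34 replicate 1. RNase H in hst34 gave 6 with only the groups compared, where 1060 of all genes were called. The stricter Break-seq overlap gave 1 gene (2.7%), beside 2.3% of all intervals. The cause was not tested. Over all genes, calls ran from 268 to 1909 in rrp6 and from 372 to 2229 in hst34rrp6 against WT. They ran from 30 to 570 in hst34 against WT and from 11 to 227 in hst34rrp6 against rrp6. In hst34rrp6 against hst34 they ran from 254 to 2292. edgeR gave the 570, 1909, 2229 and 2292. Centred libraries gave 398 in hst34 against WT, 2051 in hst34rrp6 against WT and 2066 in hst34rrp6 against hst34. In the last, DESeq2 gave 1915.

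The labels do not say that a replicate number pairs samples, and deviations of same-numbered RNA libraries correlated at −0.2 to 0.11 (DRIP 0.12 to 0.94). With the replicate number as a block, 6 ATG genes were called in rrp6 against WT, 6 in hst34rrp6 against WT (ATG32 and ATG39 lost), 4 in hst34rrp6 against hst34 (ATG32 lost) and 0 in the other comparisons.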

Other observations

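Some neighbours of ATG genes passed the test in rrp6 against WT where the ATG gene did not, or moved the other way. They were chosen after their values were seen. Of the nearest intervals on either side of every ATG gene, only PPT2, SSU72, GDB1 and SDH2 were called in this comparison. That share was below the 11.2% of all genes tested that were called. PPT2, on the opposite strand and sharing 132 bp with ATG5, had an RNA signal of 102.2 and 78.2 in WT and of 328.8 and 292.8 in rrp6, a log2 fold change of 1.31 ± 0.20 (limma, adjusted p = 1.91e-09), while ATG5 was 388.8 and 546.8 in WT and 418.6 and 409.5 in rrp6. SSU72, a polymerase II phosphatase gene that follows ATG4 on the same strand, was 235.1 and 272.0 in WT and 574.8 and 635.5 in rrp6 (1.09 ± 0.22, adjusted p = 2.25e-05), with ATG4 not called. GDB1, the glycogen debranching enzyme gene just upstream of ATG13, was 135.9 and 133.0 in WT and 297.9 and 334.1 in rrp6 (0.95 ± 0.20, adjusted p = 6.86e-05). SDH2, a succinate dehydrogenase gene upstream of ATG10, went the other way from ATG10, from 721.7 and 955.1 in WT to 391.3 and 430.6 in rrp6 (−0.92 ± 0.22, adjusted p = 0.000612).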
